A study of Mus musculus with 65 samples.

Results

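MEF2A peaks are the 203 genomic intervals that the deposited list gives for binding of the transcription factor MEF2A in mouse cerebellum, out of 1591 intervals in the deposited MEF2A and MEF2D lists. All 203 were taken, and each was set beside the 1388 MEF2D peaks, the histone mark H3K27ac at sites overlapping it by 1 bp or more, and the RNA of genes that hold it or lie within 5000 bp of it. The study examined how far the paralogs MEF2A and MEF2D depend on each other, in C57BL/6 conditional knockout (cKO) mice lacking MEF2A, MEF2D or both (MEF2AD) and in a Control group of each line. H3K27ac ChIP-seq came from 3 cKO and 3 Control libraries per line with 2 inputs, and RNA-seq from 4 and 4 libraries per line. All were from female mice, and the RNA was taken at postnatal day 22. Titles of all RNA samples name the rotarod, a motor learning task, whereas the deposited RNA table names a baseline. Whether the mice had been trained is not known. The labels leave out the age of the ChIP-seq mice, the Cre driver, the deleted exons and the alleles that Control mice carry. The MEF2A ChIP libraries were labelled as 4 MEF2A Control, 2 MEF2A cKO and 4 MEF2D cKO, and they leave out which of these made the list. It carries no score, so binding itself could not be compared between mice.

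MEF2 proteins bind as dimers, through a MADS domain, to an AT-rich 10-base element. They switch between activation and repression through partners such as class IIa histone deacetylases and calcineurin, and neuronal activity is a known input. In the cerebellum they are known for their part in the survival and synapse maturation of granule neurons, the most abundant neuron there. H3K27ac, acetylation of a lysine of histone H3, marks active promoters and enhancers.

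The sequence under a peak could be read for 21 of the 203 peaks, those overlapping the promoter window of 1 or more of 22 genes in the RefSeq table (GRCm38.p6, the mm10 build of the files; 250 bases before to 50 after each start). The first 5 sequences below carry the MEF2 consensus, which is C or T, then TA, then 4 bases each A or T, then TA, then A or G, in capitals, and were chosen because the RNA or the level of H3K27ac at their genes is described further on. Each is shown 5′ to 3′ on the strand of its gene, and the longer ones lie in the overlap of peak and promoter. They end at or before the transcript start, except that of Mef2a, which runs to base 7 after it so as to hold the whole element. Kcnj9 encodes an inwardly rectifying potassium channel, Hdac5 a class IIa deacetylase that binds MEF2, Jun a subunit of the factor AP-1 and Ankrd34a an ankyrin repeat protein. Kcnj9 was read from chr1:172329331-172329533 (minus strand), Hdac5 from chr11:102230173-102230344 (minus), Jun from chr4:95052223-95052433 (minus), Mef2a from chr7:67372851-67373035 (minus) and Ankrd34a from chr3:96596559-96596588 (plus).
Kcnj9: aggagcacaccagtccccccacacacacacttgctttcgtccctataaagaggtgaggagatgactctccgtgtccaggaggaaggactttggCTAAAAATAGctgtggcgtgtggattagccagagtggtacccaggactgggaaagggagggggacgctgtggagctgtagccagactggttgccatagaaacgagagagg
Hdac5: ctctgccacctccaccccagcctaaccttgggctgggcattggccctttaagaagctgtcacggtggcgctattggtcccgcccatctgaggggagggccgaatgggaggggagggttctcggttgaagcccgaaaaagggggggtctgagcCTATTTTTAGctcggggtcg
Jun: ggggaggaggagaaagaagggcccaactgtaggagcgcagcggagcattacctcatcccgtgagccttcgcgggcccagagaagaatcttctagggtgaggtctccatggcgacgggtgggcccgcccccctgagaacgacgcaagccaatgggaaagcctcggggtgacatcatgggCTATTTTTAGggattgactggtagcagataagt
Mef2a: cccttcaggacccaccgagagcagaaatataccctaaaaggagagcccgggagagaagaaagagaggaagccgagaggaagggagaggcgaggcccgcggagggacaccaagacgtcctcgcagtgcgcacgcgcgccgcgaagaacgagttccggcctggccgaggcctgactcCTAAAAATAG
Ankrd34a: agagactgggCTATAAATAGcacagaagag

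Mef2a itself thus carries a MEF2A peak, with the element across one of its starts. The Dusp16 and Dusp8 promoters are at peaks that no MEF2D peak overlaps, and are shown as examples of those; both genes encode phosphatases that inactivate MAP kinases. Dusp16 was read from chr6:134792629-134792734 (minus) and holds the relaxed consensus, in capitals. Dusp8 was read from chr7:142095373-142095402 (minus); its capitals mark a cAMP response element (CRE, searched as TGACGTC), the site bound by CREB factors, and its stretch holds no MEF2 consensus.
Dusp16: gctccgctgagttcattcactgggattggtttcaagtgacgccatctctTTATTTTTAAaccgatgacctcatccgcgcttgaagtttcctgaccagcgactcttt
Dusp8: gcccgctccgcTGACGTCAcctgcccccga

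Of the 22 promoters at MEF2A peaks, 13 (59.1%) held the MEF2 consensus, compared with 32.6% of 89 promoters at MEF2D peaks that overlap no MEF2A peak and 3.19% of all 32851 promoter windows. The strict form, CTA then 4 of A or T then TAG, was in 11 of the 22 (50%), in 22.5% of the promoters at MEF2D peaks alone and in 0.557% of all. In each of the 13 the element lay in the peak as well, with its middle 0 to 36.5 bp from the peak's centre. Jun and its antisense gene Junos share 1 peak and 1 element, so the 13 promoters lie at 12 peaks and the 11 strict ones at 10. The median distance over the 12 peaks was 7.25 bp. CRE was in 6 promoters (27.3%), compared with 3.21% of all and 1.12% at MEF2D peaks alone. Both strands were searched, and the strict form counts within the consensus. AP-1 (TGANTCA) was in 9.09% and 7.81% of all windows, the E-box CAGCTG in 9.09% and 16.3%, the NFI element TTGGCA in 4.55% and 14.1%, the ZIC element CAGCAGG in 4.55% and 10.5%, and the RFX element GTTGCC in 9.09% and 12.5%. Peaks shared with MEF2D supplied 18 of the 21 peaks at promoters, 11 with the MEF2 consensus and 4 with a CRE in the promoter window. The other 3, at Creb5, Dusp8 and Dusp16, held a CRE in 2 cases and the relaxed MEF2 consensus in 1. The CRE was counted over the whole promoter window, not within the peak. At Zfand5, a peak shared with MEF2D, the promoter stretch in the peak holds no CRE. All of these are matches of letters in a small set of promoters, without a test.

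Most MEF2A peaks lay inside MEF2D peaks. A MEF2D peak overlapped 169 of the 203 (83.3%), covering a median of 100% of their length, while 167 of the 1388 MEF2D peaks (12%) overlapped a MEF2A peak. MEF2A peaks were 167 to 456 bp long with a median of 219 bp, and MEF2D peaks had a median of 318 bp. The 34 MEF2A peaks without a MEF2D peak remained 34 when at least 0.5 of the peak had to be covered, and 33 had no MEF2D peak within 500 bp. Among the 34 were peaks on the unplaced scaffold Un_GL456370 and in the immunoglobulin locus Igh. Others lay close together on chromosome 5, between 14954088 and 15642416, by Speer and predicted genes.

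A nearest listed start could be given for 191 peaks, but the list of starts was incomplete. For peaks in the bodies of Clu, Msra and Stk3 it lay at −1.19e+06, 1.33e+06 and −1.49e+06 bp. Shares near a start may therefore be too low and distances too long, for MEF2A and MEF2D peaks alike. Of these, 101 (52.9%) lay in a gene body over 1000 bp from a start, 27 (14.1%) within 1000 bp of a start, 22 (11.5%) outside but within 5000 bp of a gene and 41 (21.5%) farther away. The median distance to the nearest start was 17101 bp. For 1165 MEF2D peaks without a MEF2A peak the shares were 60.4%, 10.04%, 7.73% and 21.8%, and the median distance was 27785 bp. The 31 placed MEF2A peaks without a MEF2D peak were spread like the rest, with 17 (54.8%) in gene bodies, 5 (16.1%) near a start and a median distance of 17605 bp.

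Before the results, some facts of the libraries bear on them. H3K27ac libraries held 8694657 to 48557960 reads, of which 0.464% to 0.706% lay in the 1419 sites of the deposited table; the fewest reads were in MEF2AD Control 3. RNA libraries held 9178139 to 23160475 reads in genes. The site shares were 0.620% or more in all Controls and MEF2A cKO libraries, 0.514% to 0.550% in MEF2D cKO and 0.464% to 0.482% in MEF2AD cKO, so the choice of scale matters: scaling by TMM (trimmed mean of M values), which sets the typical site near no change, gave log2 changes higher by a median of 0.07, 0.36 and 0.50 in MEF2A, MEF2D and MEF2AD cKO than scaling by library totals. Both scales are therefore given for H3K27ac. MEF2AD cKO 3 stood apart in H3K27ac and results are also given without it. Mef2a RNA was 207, 220, 230 and 232 CPM (reads of the gene scaled to the library total) in MEF2A Control and 76.9, 97.9, 87.9 and 89.2 in MEF2A cKO, and 188, 193, 193 and 182 in MEF2AD Control and 89.4, 97.6, 88.4 and 99.2 in MEF2AD cKO. Mef2d RNA was 357, 321, 310 and 306 CPM in MEF2D Control and 363, 387, 360 and 360 in MEF2D cKO, and 276 to 316 in MEF2AD Control and 361 to 388 in MEF2AD cKO. It was not lower in either knockout of Mef2d, changing by 0.19 in MEF2D cKO (limma, adjusted p = 0.165) and rising by 0.32 in MEF2AD cKO (adjusted p = 0.017), so the count over the whole gene does not check those labels, which are used as given. Gabra6, a GABA receptor subunit of mature granule neurons, ranged from 591 to 1488 CPM and rose in all 3 knockouts, by 0.74, 0.88 and 0.37 on the log2 scale in MEF2A, MEF2D and MEF2AD cKO (limma, adjusted p = 1.45e-06, 6.9e-08 and 0.00419). The 16 listed markers of mature granule neurons did not rise as a set. In the same order, 1, 2 and 2 of them rose (0.149%, 2.6% and 1.16% of all genes). Falls numbered 0, 3 and 1 (0.129%, 2.31% and 1.26%), and the median log2 changes were −0.001, −0.04 and 0.04. Ttr, the transthyretin of choroid plexus, ranged from 4.92 to 1675 CPM; 0 of 8 listed choroid plexus markers were called in any knockout and none is at a MEF2A peak. The part of these differences in the results was not tested.

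At 199 of the 203 peaks an H3K27ac site was present, in 198 sites, since 1 site holds 2 peaks; 165 of these sites have a MEF2D peak at the MEF2A peak and 33 do not. All 198, and none of the other 1221 sites, carry the class C in a deposited sheet whose title pairs compensatory with non-compensatory sites, so that class and overlap with a MEF2A peak pick the same sites. The other sites match in number the 1221 MEF2D peaks that overlap no MEF2A peak. Members and other sites are thus all MEF2 sites, and shares over all sites are not those of H3K27ac sites at large. In Controls the members had a median of 4.95 RPM (reads of the site scaled to the library total), with a range from 0 to 23.4, compared with 3.71 at the other sites; the median in the inputs was 0.277 at the members. Peaks shared with MEF2D had a median of 6.06 RPM and peaks without a MEF2D peak 1.81 RPM. The Control mean exceeded the input mean at 188 sites. Sites with too few reads (at most 10 in any library, at most 0.336 RPM in Controls) were not tested: 11 members, 10 of them without a MEF2D peak. That left 187 members, 164 with and 23 without a MEF2D peak, among 1372 tested sites.

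The 4 members with the highest Control level were in or near Cabin1, Mef2a, Adcy1 and Malat1. Cabin1 encodes a calcineurin-binding corepressor of MEF2, Adcy1 a calcium-stimulated adenylyl cyclase and Malat1 a nuclear long noncoding RNA. Cabin1 (chr10:75667272-75667802, in the gene body) had a Control mean of 23.4 RPM, the Mef2a start (chr7:67372576-67373229) 22, a site at −7271 bp from the Adcy1 start (chr11:7055985-7056489) 21.7 and the Malat1 start (chr19:5802607-5803066) 17.7. At Mef2a the values were 19.3, 20.7 and 24.3 RPM in MEF2AD Control and 20.7, 20.3 and 22 in MEF2AD cKO, so the groups overlapped. Relative to library totals none of the 4 was called in any knockout, and in MEF2AD cKO their log2 changes ranged from −0.14 to 0.07. By TMM the same 4 were called higher in MEF2AD cKO, with log2 changes of 0.42, 0.51, 0.60 and 0.38.

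Loss of MEF2A alone left no H3K27ac change at MEF2A peaks that passed the test. The median over the 198 members was 5.25 ± 0.17 RPM in MEF2A Control and 5.09 ± 0.14 in MEF2A cKO (mean ± SD over libraries, n = 3 each), a change of −3.03%; the other sites changed by −3.29%. The test was edgeR's quasi-likelihood test with Benjamini-Hochberg adjustment over all 1372 sites at 0.05, as in all H3K27ac results. It called 0 members higher and 0 lower by TMM, where 0.0729% and 0% of all tested sites were called, and 0 and 0 by library totals, where 0% and 0% were. Unadjusted p was under 0.05 at 9 of 187 tested members by TMM and 20 by totals, against 110 and 138 of all 1372 tested sites. DESeq2 also called 0 members. The median log2 change of the members was −0.05 by TMM and −0.12 by totals.

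**Figure D1:**
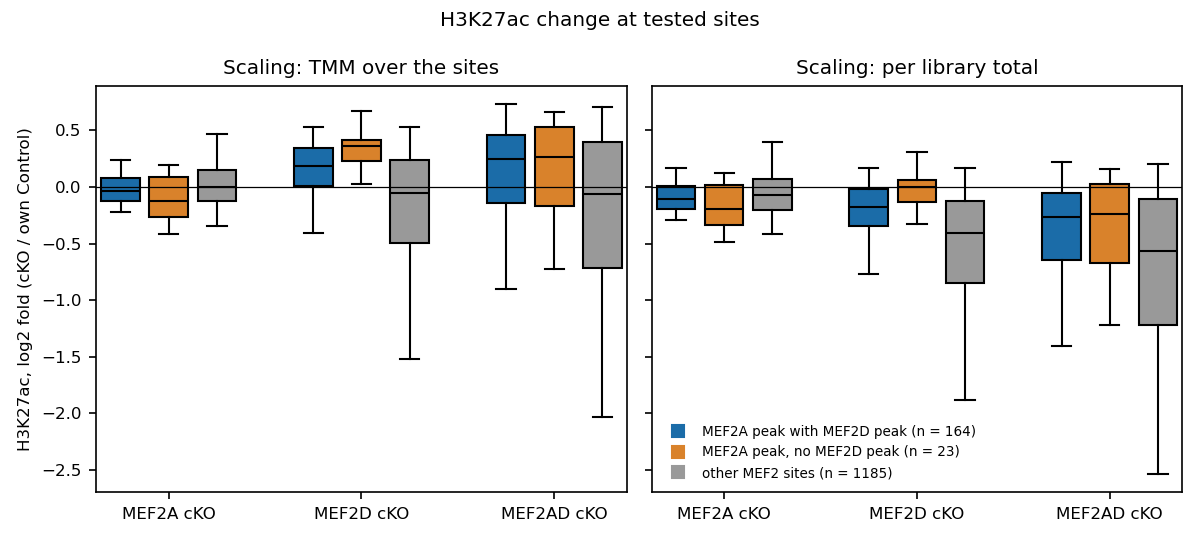
Log2 change of H3K27ac at tested sites (vertical axis) in each knockout against its own Control (horizontal axis), scaled by TMM on the left and by library totals on the right, for MEF2A peaks with a MEF2D peak (164), MEF2A peaks without one (23) and the other sites (1185). Boxes span the quartiles and whiskers the 5% to 95% range over sites; in MEF2AD cKO the median of all members is 0.25 by TMM and −0.26 by totals, and that of the other sites −0.06 and −0.56.

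In MEF2D cKO, H3K27ac at MEF2A peaks was lower per library total, by less than at the other sites, which are MEF2 sites without a MEF2A peak. The median level was 5.18 ± 0.24 RPM in Control and 4.42 ± 0.25 in cKO (n = 3 each), a change of −14.7%, while the other sites changed by −29.9%. By library totals edgeR called 35 of 187 members lower and 1 higher, where 41.2% of all sites were called lower and 0.583% higher, with a median log2 change of −0.14 at members and −0.41 at the other sites. By TMM it called 8 lower and 45 higher, where 20% of all sites were lower and 14.7% higher, with medians of 0.22 and −0.05. The 8 members lower by TMM were also lower by totals, and 1 member was higher on both scales. Without MEF2D cKO 1 the count lower by TMM was 4.

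The steepest fall in MEF2D cKO was at chr10:45870993-45871402, outside genes and within 5000 bp of Gpx4-ps2, a pseudogene of a glutathione peroxidase. It had 3.46, 2.58 and 3.29 RPM in Control and 0.886, 1.38 and 0.896 in cKO. Every cKO library was below every Control library, and the log2 change was −1.21 ± 0.23 (SE) by TMM (edgeR, adjusted p = 4.79e-05) and −1.57 by totals. In Scn2a, a sodium channel of axons, a site 16624 bp from the start (chr2:65685131-65685494) had 4.70, 6.15 and 5.0 RPM in Control and 2.17, 2.55 and 2.48 in cKO. Its cKO libraries were at about the same level, all below Control, with a TMM log2 change of −0.79 ± 0.19 (edgeR, adjusted p = 0.000814). A site whose peak lies 3654 bp outside Parp1, a poly(ADP-ribose) polymerase of DNA repair (chr1:180604603-180605006), had 7.45, 8.51 and 9.39 RPM in Control and 4.04, 4.76 and 4.06 in cKO. The groups were again apart, with a change of −0.62 ± 0.15 (edgeR, adjusted p = 0.00106).

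The other 5 falls by TMM in MEF2D cKO were smaller. One was at Plxna4 (−0.56; edgeR, adjusted p = 0.0337), where the groups overlapped by TMM, and one at chr1:137657042-137657364, without a gene within 5000 bp (−0.35, adjusted p = 0.0345). The others were at chr9:49178581-49178932 and chr6:89239417-89239839, neither with a gene within 5000 bp (both −0.49; edgeR, adjusted p = 0.0433 and 0.0224), and in Ntng1, a netrin-like adhesion protein of axons (chr3:109932223-109932625; −0.36, adjusted p = 0.031). Each of these 3 missed the threshold without MEF2D Control 3 (adjusted p = 0.233, 0.123 and 0.154) and without MEF2D cKO 1 (0.327, 0.0601 and 0.0754), and by DESeq2. By library totals all 3 were lower, with log2 changes of −0.85, −0.85 and −0.72. The largest rises by TMM were at Npas4, an activity-induced transcription factor of neurons, and at chr4:64632306-64632502. The Npas4 site (chr19:4992699-4993271) had 2.03, 2.63 and 2.4 RPM in Control and 1.62, 3.38 and 4.78 in cKO, so the groups overlapped (0.84 ± 0.23; edgeR, adjusted p = 0.00358, and 0.48, adjusted p = 0.105, by totals). The site at chr4:64632306-64632502 has neither a gene nor a MEF2D peak (1.63, 1.26 and 1.92 RPM in Control, 1.92, 2.21 and 2.48 in cKO; 0.84 ± 0.22, adjusted p = 0.00265, and 0.48, adjusted p = 0.0833, by totals). The lowest cKO library there had the same level as the highest Control library to 3 digits. A site by the predicted gene Gm34011 (chr18:55133675-55134438) rose on both scales (0.79 by TMM and 0.44 by totals; edgeR, adjusted p = 2.49e-05 and 0.0209).

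Loss of both factors gave the largest counts of changed members. The median level was 4.76 ± 0.17 RPM in MEF2AD Control and 3.64 ± 0.35 in MEF2AD cKO (n = 3 each), a change of −23.6%, against −42.2% at the other sites. By library totals edgeR called 80 of 187 members lower and 7 higher, where 54.9% of all sites were called lower and 2.04% higher. By TMM it called 33 lower and 81 higher, where 32.2% and 30.9% of all sites were. The median log2 change of the members was −0.26 by totals and 0.25 by TMM, and that of the other sites −0.56 and −0.06. All 33 members lower by TMM were lower by totals, 7 were higher on both scales, and 2 were higher by TMM and lower by totals. Most of the rises thus held only relative to the other sites.

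MEF2AD cKO 3, a library of 12235974 reads, was the lowest of the 3 cKO libraries at 33 of the 33 members that fell by TMM and at 75 of the other 154 tested. Without it 31 members were lower and 76 higher by TMM, and 76 lower and 6 higher by library totals, so the counts did not rest on it. The sizes of the single falls below include it. Fewer cells of a type and less mark per cell cannot be told apart in these whole-tissue libraries, and this holds for the RNA as well.

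The deepest fall in MEF2AD cKO was in Plxna4, a plexin that receives semaphorin signals in axon guidance (chr6:32479184-32479467). It had 4.18, 2.9 and 2.88 RPM in Control and 0.872, 0.659 and 0.163 in cKO. All 3 cKO libraries were low, and the log2 change was −1.88 ± 0.24 by TMM (edgeR, adjusted p = 1.61e-09) and −2.38 by totals. The same site had 3.46, 4.01 and 3.43 RPM in MEF2D Control and 1.53, 2.82 and 1.58 in MEF2D cKO (−0.56, adjusted p = 0.0337), and 3.1, 3.24 and 3.86 in MEF2A Control and 2.97, 3.31 and 3.43 in MEF2A cKO (0.01). The level was thus lower with MEF2D lost and lower again with both lost, and close to Control with MEF2A lost. Gpx4-ps2 followed with 2.95, 2.64 and 2.65 RPM in MEF2AD Control and 0.872, 0.453 and 0.409 in cKO (−1.73 ± 0.24 by TMM; edgeR, adjusted p = 1.54e-08; −2.23 by totals). Every MEF2AD cKO value there was below every MEF2D cKO value, but the test of the difference between the 2 effects did not pass (−0.53, adjusted p = 0.466).

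Other large falls, besides Manba described with the sites lacking a MEF2D peak, were at sites not called by TMM in MEF2D cKO. By library totals the first Dot1l site and the Strada site below were called lower in MEF2D cKO as well (−0.57 and −0.55, edgeR, adjusted p = 0.0288 and 0.0263). A site at −3587 bp from the start of Dot1l, a histone H3 methyltransferase of transcribed genes (chr10:80751506-80751786), had 2.78, 3.14 and 3.45 RPM in MEF2AD Control and 1.01, 0.906 and 0.490 in cKO. The groups were far apart (−1.29 ± 0.22 by TMM; edgeR, adjusted p = 1.2e-06; −1.79 by totals), while a second Dot1l site in the gene body changed by 0.41 by TMM and −0.10 by totals. In Strada, a pseudokinase that activates the polarity kinase LKB1 (chr11:106179804-106180055), 2.91, 4.11 and 3.34 RPM stood against 1.15, 1.30 and 0.245. The change was −1.18 ± 0.22 by TMM (edgeR, adjusted p = 1.01e-05). Away from genes, chr12:21472428-21472791 had 1.51, 1.14 and 2.07 RPM in Control and 0.489, 0.494 and 0.163 in cKO (−1.20 ± 0.31, adjusted p = 0.000713), and chr8:112191737-112191979 had 1.61, 1.10 and 1.38 and then 0.698, 0.391 and 0.245 (−1.02 ± 0.30, adjusted p = 0.00265). The last of these was no longer called by TMM without MEF2AD cKO 2 (adjusted p = 0.0602).

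Scn2a and Parp1, which fell in MEF2D cKO, also fell in MEF2AD cKO. Scn2a had 4.39, 3.97 and 4.72 RPM in Control and 2.20, 1.38 and 0.327 in cKO (−1.02 by TMM; edgeR, adjusted p = 1.05e-05), and Parp1 7.51, 6.68 and 7.59 and then 3.31, 2.97 and 0.736 (−0.90; adjusted p = 1.63e-06). The cKO libraries spread widely at both, with the third lowest. Of the 8 members lower by TMM in MEF2D cKO, 7 were among the 33 lower in MEF2AD cKO, and of the 35 lower by totals 28 were among the 80.

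The 3 largest rises in MEF2AD cKO held on both scales, and 2 were at activity-regulated genes, Npas4 and Nr4a1. The sites of the other 4 such genes at peaks were not higher by totals: Nr4a2 was lower (−0.34, adjusted p = 0.0252), and Nr4a3 (−0.12), Ier2 (−0.12) and Jun (0.03) were not called. At chr12:85436014-85436608, by the predicted genes Gm29709, Gm40477 and Gm46370, Control libraries had 3.46, 3.04 and 2.99 RPM and cKO libraries 5.37, 4.94 and 6.70. The groups did not overlap, and the log2 change was 1.27 ± 0.15 by TMM (edgeR, adjusted p = 5.23e-10) and 0.76 by totals (adjusted p = 5.26e-05). At Npas4 the site at −3063 bp from the nearest start (chr19:4992699-4993271) had 3.19, 2.6 and 3.34 RPM in Control and 4.08, 4.18 and 6.37 in cKO. It was higher in 3 of 3 cKO libraries than in any Control (1.14 ± 0.19 by TMM, adjusted p = 1.2e-06; 0.63 by totals, adjusted p = 0.00732). At Nr4a1, an orphan nuclear receptor induced early after stimulation (chr15:101253873-101254354), Control had 8.40, 7.31 and 10.6 RPM and cKO 10.5, 10.1 and 13.3. The cKO values 10.5 and 10.1 lay just under the highest Control value (0.91 ± 0.13 by TMM, adjusted p = 8.82e-08; 0.39 by totals, adjusted p = 0.0181). The count of members higher by totals was 2 without MEF2AD Control 1 and 4 without MEF2AD Control 2.

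**Figure D2:**
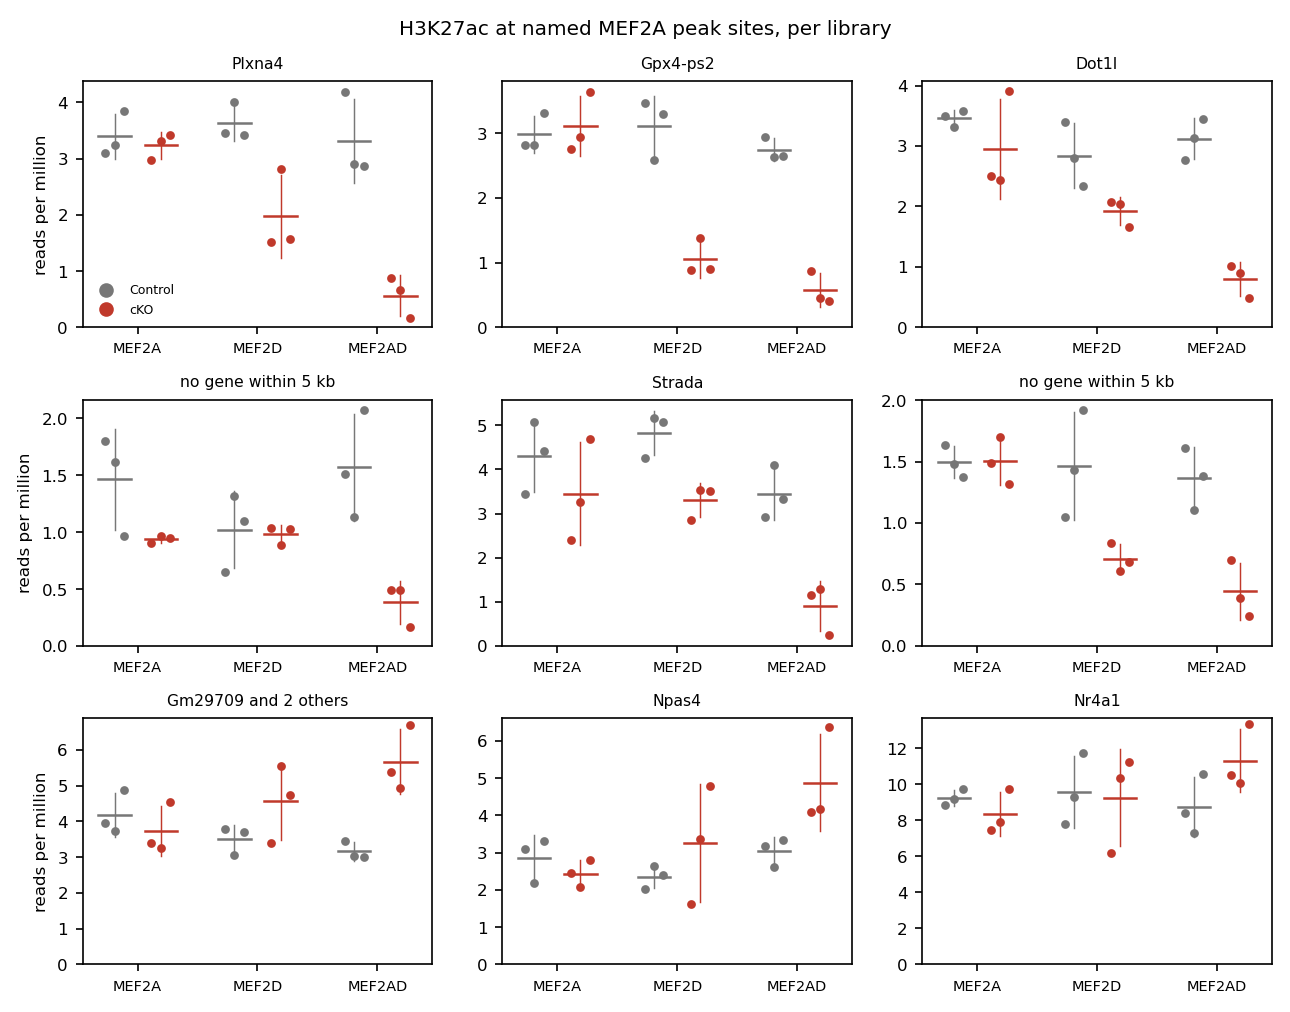
H3K27ac in RPM of the library total (vertical axes, each from 0) at the 6 largest falls and 3 largest rises of MEF2AD cKO among called sites whose groups do not overlap by TMM (which leaves out Manba), in each of the 18 libraries by line and group (horizontal axis). Points are libraries, lines group means and bars SD (n = 3); at Plxna4 the MEF2AD cKO points lie between 0.163 and 0.872, below all Control points, and at Npas4 they lie between 4.08 and 6.37.

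The MEF2AD effect was compared with each single effect directly. Against the MEF2A effect, edgeR by TMM called 19 members lower and 57 higher, where 26% and 19.4% of all sites were, and by totals 44 lower and 6 higher, where 41% and 1.53% were. The largest differences were lower at Plxna4 (−1.89), Gpx4-ps2 (−1.87), chr3:20661988-20662194 (−1.23) and Scn2a (−1.13). They were higher at chr12:85436014-85436608 (1.36), Npas4 (1.31), chr4:64632306-64632502 (1.13) and the body of Olfm1, a secreted olfactomedin of neurons (chr2:28219003-28219292; 1.02), the last 2 not called by totals (0.70 and 0.59, adjusted p = 0.0551 and 0.068). Against the MEF2D effect, 10 members were lower and 1 higher by TMM, where 2.84% and 0.219% of all sites were, and 14 lower and 0 higher by totals, where 5.83% and 0% were. The lower ones were led by a site without a MEF2D peak in Manba, a lysosomal mannosidase (−2.3 ± 0.6; edgeR, adjusted p = 0.0219), then chr12:21472428-21472791 (−1.49, adjusted p = 0.047), Plxna4 (−1.32 ± 0.32, adjusted p = 0.0138) and Dot1l (−1.08 ± 0.30, adjusted p = 0.0358).

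These differences from the MEF2D effect rested on few libraries. Without MEF2D Control 3 or without MEF2D cKO 2, 3 members were lower by TMM, without MEF2AD Control 2, 5, and without MEF2D cKO 3 or MEF2AD Control 3, 6. Plxna4 missed the threshold without MEF2D cKO 2 (adjusted p = 0.102) and without MEF2AD Control 1 (0.0774). Dot1l missed it without any 1 of 7 libraries, Manba without any 1 of 5 and chr12:21472428-21472791 without any 1 of 10, among 12. The single higher member, in Inpp4a, a phosphoinositide phosphatase (0.62, adjusted p = 0.0429), was not called by totals (0.47, adjusted p = 0.128). Against the sum of both single effects, edgeR called 0 members by TMM in either direction, where 0% of all sites were higher and 0.364% lower. Unadjusted p was under 0.05 at 29 of 187 members and at 207 of all 1372 sites, and DESeq2 called 0 higher and 0 lower. By totals it called 0 higher and 1 lower, where 0% and 1.75% of all sites were.

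Members near a listed gene start differed from the rest in MEF2AD cKO. Of the 26 members within 1000 bp of a listed start, 0 were lower and 16 higher by TMM, and 6 lower and 0 higher by totals, with median log2 changes of 0.41 and −0.10. Of the 161 tested members elsewhere, 33 were lower and 65 higher by TMM, and 74 lower and 7 higher by totals, with medians of 0.22 and −0.28. All TMM falls were therefore at sites over 1000 bp from a listed start or without one. Because starts are missing from the list, some of these sites may lie near a start. The Clu site (chr14:65968486-65968771) has its nearest listed start at −1.19e+06 bp. It fell by −0.40 by TMM and −0.91 by totals (edgeR, adjusted p = 0.00551 and 5.03e-08). In MEF2D cKO the members near a start had 0 falls and 6 rises by TMM, and the rest 8 and 39. Control levels also differed, with medians of 6.93 RPM near a start and 4.81 elsewhere, and the part of level in the difference was not tested.

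The 23 tested members without a MEF2D peak had H3K27ac changes close to those of the 164 with one in MEF2AD cKO. By TMM 3 of 23 were lower and 9 higher (median 0.26), against 30 and 72 of 164 (median 0.25), and by totals 9 and 1 (median −0.24) against 71 and 6 (median −0.26). In MEF2D cKO the 23 had a median of 0.36 by TMM and 0.00 by totals, with 0 and 1 called lower, and the 164 had 0.18 and −0.18, with 8 and 34 called lower. In MEF2A cKO 0 of the 23 were called on either scale, with 2 at an unadjusted p under 0.05 on each. Over all 33 sites without a MEF2D peak, the median level was 1.87 ± 0.22 RPM in MEF2A Control and 1.45 ± 0.30 in MEF2A cKO, a change of −22.1%, 1.63 ± 0.15 RPM in MEF2D Control and 1.72 ± 0.24 in MEF2D cKO, and 1.53 ± 0.13 in MEF2AD Control and 0.807 ± 0.204 in MEF2AD cKO (n = 3 each). The summed level of the same sites changed by −8.74%, −3.96% and −15.1% in MEF2A, MEF2D and MEF2AD cKO.

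Among members without a MEF2D peak, the highest Control level was in Igsf21, a synaptic adhesion protein of the immunoglobulin family (chr4:140192350-140192566; mean 7.55 RPM). It had 6.75, 6.94 and 7.25 RPM in MEF2AD Control and 4.01, 5.25 and 3.51 in cKO. The groups were apart per library total (−0.62, adjusted p = 6.71e-05), and the TMM change was −0.11 (adjusted p = 0.461). Next by level were chr13:101233527-101233745 (6.58 RPM; −0.38 by totals, adjusted p = 0.0294), Gm47715 (chr10:25023556-25023790; 5.10 RPM; −0.03), Myh14, a nonmuscle myosin heavy chain (chr7:44625812-44626002; 4.82 RPM; 0.16), Pxylp1, a xylose phosphatase of proteoglycan synthesis (chr9:96879097-96879309; 4.53 RPM; −0.66, adjusted p = 0.000805) and chr4:15596114-15596363 (4.44 RPM; −0.40, adjusted p = 0.0178).

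The 3 members without a MEF2D peak that fell by TMM in MEF2AD cKO were in Manba, Kcnab1 and Fggy. In Manba (chr3:135522033-135522251) Control had 0.651, 0.868 and 0.345 RPM and cKO 0.349, 0.103 and 0.0817. One Control value lay at the level of the highest cKO value (−1.43 ± 0.44; edgeR, adjusted p = 0.00459), and in MEF2D cKO the change was 0.87 (adjusted p = 0.079). In Kcnab1, a beta subunit of potassium channels (chr3:65262555-65262738), Control had 1.47, 1.74 and 1.84 RPM and cKO 0.698, 0.721 and 0.327, with no overlap (−0.83 ± 0.27, adjusted p = 0.00614). In Fggy, a carbohydrate kinase (chr4:95637207-95637388), 1.68, 1.84 and 1.38 stood against 0.837, 0.803 and 0.245 (−0.72 ± 0.27, adjusted p = 0.0186). The 9 rises by TMM were at Gm47715 (0.48), Gm38543 (chr12:85455903-85456114; 0.85), Snap25, a SNARE protein of synaptic vesicle fusion (chr2:136713295-136713525; 0.52), chr4:64632306-64632502 (0.88), chr5:28191217-28191448 (0.56), chr7:16296959-16297219 (0.51), Myh14 (0.67), Dusp8 (chr7:142095251-142095444; 0.55) and Nyx, a leucine-rich repeat proteoglycan (chrX:13469579-13469755; 0.38). By totals, Gm38543 alone of these was called higher (0.35, adjusted p = 0.0335), and the others changed by −0.13 to 0.38.

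Genes at the peaks were then followed in RNA. A gene lay within 5000 bp of 159 peaks, 190 genes in all, and 123 of them were among the 15469 genes of the RNA table, 108 at a peak shared with MEF2D and 15 only at peaks without a MEF2D peak. Their median level was 68.8 CPM, against 21.0 for all genes. All RNA results are from limma-trend on log2(CPM + 1) with Benjamini-Hochberg adjustment over the 15469 genes at 0.05, and log2 changes on this scale understate those of low genes.

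Loss of MEF2A alone changed few of these genes. Of the 123, 2 fell and 0 rose, where 0.129% and 0.149% of all genes did, and the median log2 change was −0.04 against 0.00 for all genes. An unadjusted p under 0.05 was found in 17 of the 123 and in 1198 of all 15469 genes. Mef2a, the targeted gene, fell by 1.33 on the log2 scale (± 0.06 SE; limma, adjusted p = 5.36e-14). Igsf21 had 105, 102, 103 and 111 CPM in Control and 91.5, 81.8, 88.5 and 89.0 in cKO. No cKO value reached a Control value (−0.26 ± 0.06; limma, adjusted p = 0.0398), but leaving out any 1 of the 8 libraries ended the call, with adjusted p from 0.0582 to 0.175. The replicate numbers pair the MEF2A libraries, and with them as a block 5 of the 123 were lower.

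In MEF2D cKO 11 of the 123 genes fell and 3 rose, where 2.31% and 2.6% of all genes did, with a median of −0.06 against 0.01. Peak1, a pseudokinase of the actin cytoskeleton, had 178, 180, 148 and 136 CPM in Control and 111, 123, 94.0 and 105 in cKO. The highest cKO value was below the lowest Control value (−0.56 ± 0.10; limma, adjusted p = 0.00134). Ankrd34a had 83.6, 69.5, 74.4 and 69.5 CPM in Control and 55.6, 53.8, 49.9 and 51.4 in cKO, again apart (−0.48 ± 0.09, adjusted p = 0.00126). Lzts2, a leucine zipper protein that binds beta-catenin, had 69.2, 60.5, 62.4 and 59.0 and then 48.8, 51.2, 46.4 and 44.3 (−0.39 ± 0.07, adjusted p = 0.00126). The cKO values of both genes were all below their Controls.

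The other falls in MEF2D cKO included Morn1 (−0.46), Nav2, a neuron navigator of neurite growth (−0.36), Kcnj9 (−0.28), Dot1l (−0.26), Dock4, an exchange factor for Rac (−0.25), Tob1, an antiproliferative factor in mRNA deadenylation (−0.24), and Atp2b2, a plasma membrane calcium pump (−0.22). The rises were Bmf, a pro-apoptotic protein of the BCL2 family (12.7, 13.7, 14.8 and 13.7 CPM in Control, 16.8, 16.3, 20.1 and 18 in cKO; 0.35, adjusted p = 0.0381), Olfm1 (616, 567, 607 and 635 in Control, 756, 737, 768 and 767 in cKO; 0.32, adjusted p = 0.00551) and Ralyl, an RNA-binding protein (0.31, adjusted p = 0.0386). At Bmf and Olfm1 every cKO value exceeded every Control value. The count of falls was 6 without MEF2D Control 1 and 7 without MEF2D cKO 2, and the count of rises 1 without MEF2D Control 1, MEF2D Control 2 or MEF2D cKO 4. Bmf missed the threshold without 6 of the 8 libraries.

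In MEF2AD cKO 25 of the 123 genes fell and 1 rose, where 1.26% and 1.16% of all genes did. The median log2 change was −0.09 against 0.00, and 88 of the 123 were below 0, against 7708 of all 15469 genes. Peak1 had 128, 144, 139 and 133 CPM in Control and 54.7, 50.5, 54.8 and 58.3 in cKO. The drop was to 0.405 of Control (−1.30 ± 0.10; limma, adjusted p = 2.78e-09), with no overlap. The antisense gene Peak1os lies inside Peak1, and the labels do not say whether counting used strand. Tll1, a metalloprotease of the tolloid family that processes procollagen, had 31.0, 33.2, 33.7 and 28.8 CPM in Control and 15.8, 14.1, 12.6 and 12.6 in cKO. Its cKO values were below all Controls (−1.15 ± 0.09, adjusted p = 6.69e-09), and it did not pass in MEF2A cKO (−0.01) or MEF2D cKO (−0.17). Mef2a, a targeted gene here as well, fell by 1.01 (± 0.06, limma, adjusted p = 1.7e-11).

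Bbc3, the p53 target PUMA and like Bmf a pro-apoptotic member of the BCL2 family, had 11.1, 15.6, 12.9 and 13.1 CPM in MEF2AD Control and 6.19, 6.07, 6.62 and 6.24 in cKO. The cKO values were close together and all below Control (−0.95 ± 0.16; limma, adjusted p = 0.000378). Dusp16 had 51.0, 40.1, 48.5 and 42.4 CPM in Control and 26.0, 25.3, 23.2 and 25.4 in cKO (−0.84 ± 0.10, adjusted p = 8.42e-06). Lzts2 had 67.7, 65.9, 75.1 and 65.7 CPM and then 38.9, 38.8, 43.1 and 38.0 (−0.77 ± 0.07, adjusted p = 4.11e-08). Cnnm4, a magnesium transporter, had 40.7, 36.2, 40.5 and 38.2 CPM and then 24.4, 20.8, 25.6 and 21.6 (−0.73 ± 0.10, adjusted p = 2.05e-05). In each of these genes the groups did not overlap, and the same holds for Ankrd34a, with 63.2, 77.9, 68.8 and 65.9 CPM in Control and 44.5, 44.1, 43.2 and 43.8 in cKO (−0.64 ± 0.09, adjusted p = 2.99e-05).

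**Figure D3:**
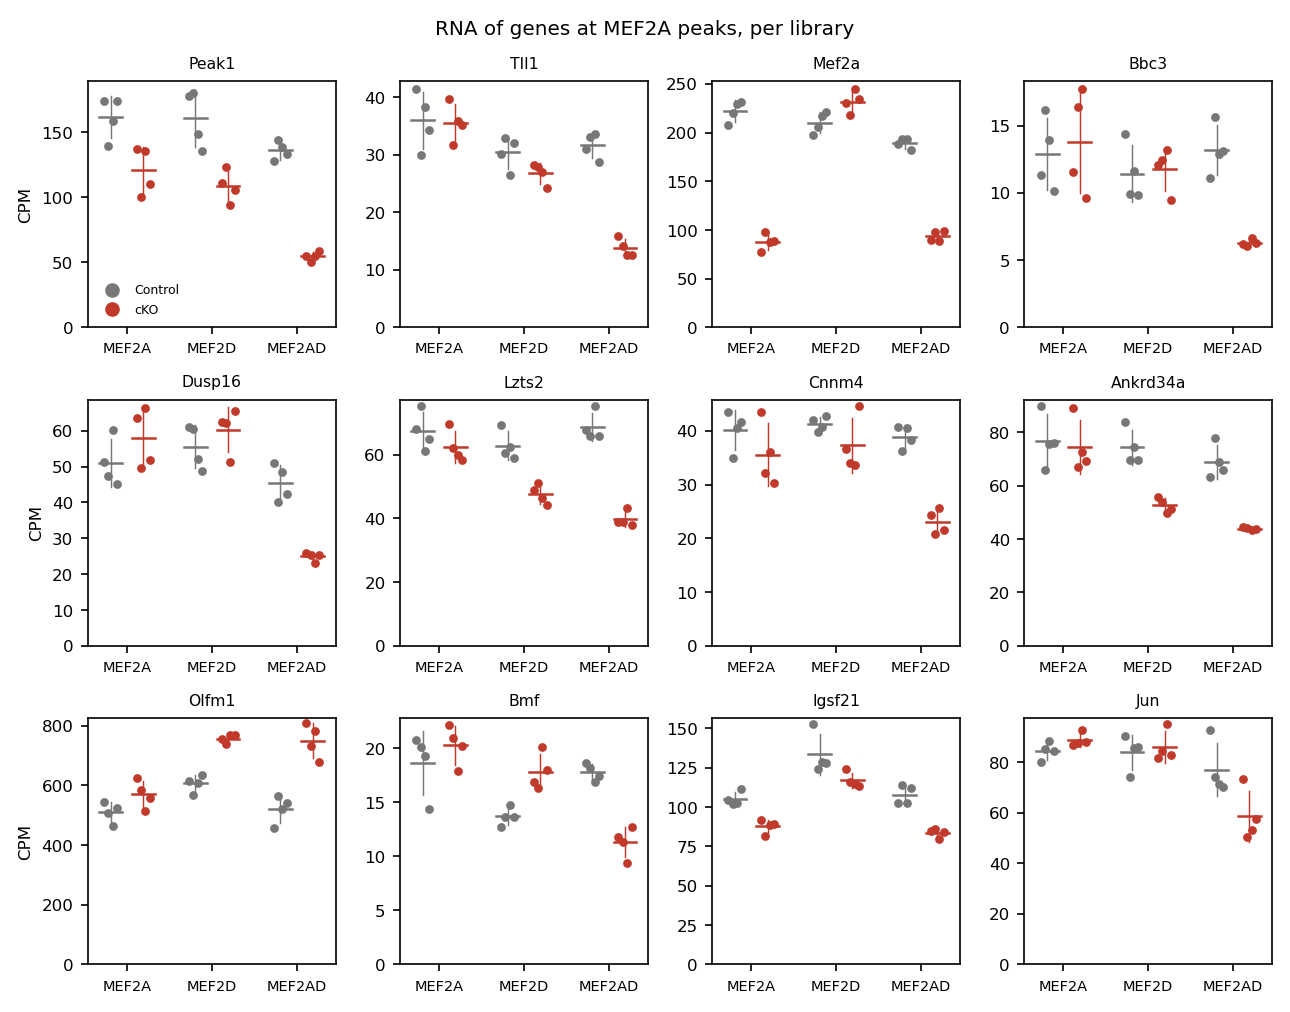
RNA in CPM (vertical axes, each from 0) of 12 genes at MEF2A peaks in each of the 24 libraries by line and group (horizontal axis); points are libraries, lines group means and bars SD (n = 4). Peak1 and Tll1 are lowest in MEF2AD cKO, Mef2a is low in both MEF2A cKO and MEF2AD cKO, and Olfm1 is above its Control in MEF2D cKO (737 to 768 CPM) and MEF2AD cKO (677 to 808 CPM).

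Bmf, which rose in MEF2D cKO, fell in MEF2AD cKO, from 18.6, 18.1, 16.9 and 17.5 CPM in Control to 11.8, 11.4, 9.40 and 12.7 in cKO (−0.62 ± 0.10; limma, adjusted p = 0.000288). Its Controls differed between lines, at 12.7 to 14.8 CPM in the MEF2D line and 16.9 to 18.6 in the MEF2AD line. Olfm1 was the single rise, from 457, 564, 520 and 542 CPM to 808, 730, 784 and 677 (0.53 ± 0.07, adjusted p = 1.29e-05). The other falls were Ntng1 (−0.79), Morn1 (−0.63), Inpp4b, a phosphoinositide phosphatase (−0.62), Pxylp1 (−0.53), Ablim3, an actin-binding LIM protein (−0.48), Manba (−0.46), Ube2d1, a ubiquitin-conjugating enzyme (−0.43), Hdac7, a class IIa deacetylase that represses MEF2 (−0.43), Jun (−0.39), Igsf21 (−0.36), Kcnj9 (−0.36), Strada (−0.33), Nav2 (−0.30), Myh14 (−0.28), Dot1l (−0.26) and Prkacb, a catalytic subunit of protein kinase A (−0.24). Jun had 92.7, 74.2, 71.1 and 70.0 CPM in Control and 73.1, 50.5, 53.2 and 57.5 in cKO, so 1 cKO library lay within the Control range (adjusted p = 0.0125). An antisense gene, Junos, starts at the same peak, and its reads may be counted with those of Jun for the same reason.

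Of the 15 genes only at peaks without a MEF2D peak, 5 fell in MEF2AD cKO, namely Dusp16, Pxylp1, Manba, Igsf21 and Myh14, and 0 rose. Igsf21 had 103, 114, 103 and 112 CPM in Control and 84.6, 85.8, 79.6 and 84.4 in cKO, with no overlap. None of the 15 was called in MEF2D cKO, where Igsf21 changed by −0.18 (limma, adjusted p = 0.0581) and Dusp16 by 0.12 (adjusted p = 0.604). Of the 11 falls in MEF2D cKO, 7 (63.6%) were among the 25 in MEF2AD cKO (28%), and these were Ankrd34a, Dot1l, Kcnj9, Lzts2, Morn1, Nav2 and Peak1.

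**Figure D4:**
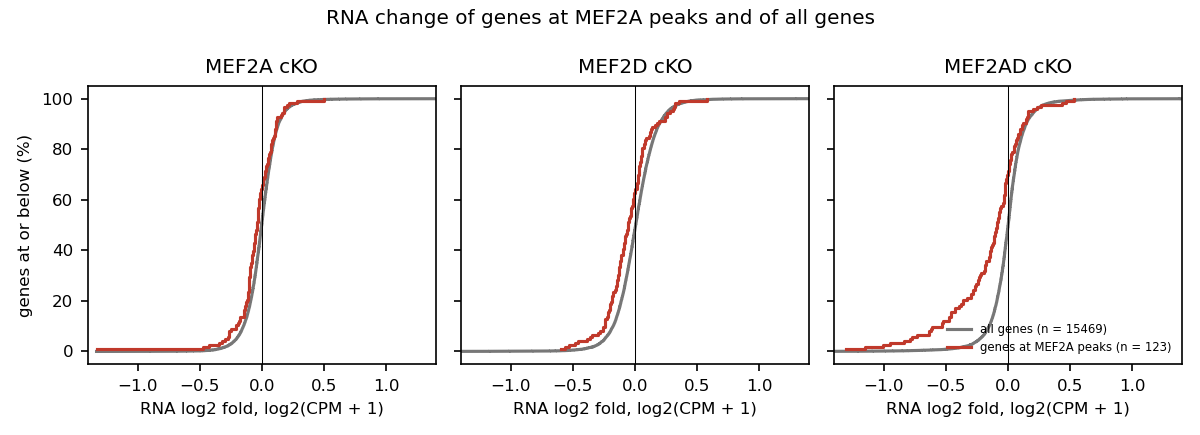
Cumulative percent of genes (vertical axis) by RNA log2 change (horizontal axis) in each knockout, for the 123 genes at MEF2A peaks and for all 15469 genes. The curve of the 123 lies above that of all genes at 0 in each knockout, and its median is −0.04 in MEF2A cKO, −0.06 in MEF2D cKO and −0.09 in MEF2AD cKO.

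Tests of the differences between effects named few genes. The MEF2AD effect was lower than the MEF2A effect in 9 of the 123 genes and higher in 0, where 0.31% and 0.233% of all genes differed, led by Tll1 (−1.14 ± 0.13), Bbc3 (−1.03 ± 0.22), Dusp16 (−1.01 ± 0.15) and Peak1 (−0.88 ± 0.14). The other 5 were Bmf (−0.74), Lzts2 (−0.67), Ankrd34a (−0.59), Klf6, a Krüppel-like factor (−0.57), and Pxylp1 (−0.41). The MEF2AD effect was lower than the MEF2D effect in 6 and higher in 0, where 0.084% and 0.0194% did. Mef2a (−1.15) is among the 6 by design, since it is targeted in MEF2AD cKO and not in MEF2D cKO. The others were Tll1 (−0.97 ± 0.13, limma, adjusted p = 0.000376), Bmf (−0.97), Dusp16 (−0.95 ± 0.15, adjusted p = 0.00153), Peak1 (−0.74) and Pxylp1 (−0.46). The MEF2AD effect was lower than the sum of the single effects in 3 and higher in 0, where 0.207% and 0.142% did. These were Dusp16 (−1.13 ± 0.18, adjusted p = 0.00183), Bmf (−1.10 ± 0.17, adjusted p = 0.00183) and Tll1 (−0.97 ± 0.16, adjusted p = 0.00358). Bbc3 missed the threshold against MEF2A without any 1 of 7 of the 16 libraries (adjusted p up to 0.075).

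H3K27ac and RNA were set side by side for the 128 pairs of a gene and a tested site, which cover 120 genes. In MEF2AD cKO, the 27 pairs of the 25 genes that fell had 18 sites lower and 0 higher by library totals, and 9 lower and 9 higher by TMM, with median H3K27ac log2 changes of −0.61 and −0.10. The other 101 pairs had 28 lower and 3 higher by totals, and 13 lower and 53 higher by TMM, with medians of −0.13 and 0.38. Of all tested sites, 54.9% were lower and 2.04% higher by totals, and 32.2% lower and 30.9% higher by TMM. Of the tested members, 42.8% were lower and 3.74% higher by totals, and 17.6% lower and 43.3% higher by TMM. Across the 128 pairs, Pearson's r between the log2 changes was 0.28 and Spearman's rho 0.27 for MEF2AD cKO, with 0.17 and 0.13 for MEF2D cKO, then 0.03 and −0.01 for MEF2A cKO; these describe pairs that share libraries, and some genes and sites enter more than once.

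Genes that fell with their site included Peak1, Bmf, Inpp4b, Cnnm4 and Ube2d1. The Peak1 site (chr9:56290057-56290328) had 4.04, 4.21 and 3.57 RPM in MEF2AD Control and 2.48, 1.69 and 0.327 in cKO (−0.72 by TMM and −1.22 by totals; edgeR, adjusted p = 0.00169 and 2.46e-06). The Bmf site (chr2:118540882-118541160) had 7.88, 7.51 and 7.94 and then 3.80, 3.87 and 0.490 (−0.74 and −1.25). The Cnnm4 site (chr1:36492461-36492817) had 6.68, 7.04 and 6.10 and then 3.91, 3.77 and 1.88 (−0.45 and −0.95). All cKO values at these 3 sites were below all Control values.

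Other genes fell while H3K27ac at their peak did not. At Tll1 (chr8:64152122-64152647, in the gene body) H3K27ac was 8.19, 7.44 and 5.98 RPM in MEF2AD Control and 7.64, 9.08 and 7.60 in cKO (0.65 by TMM, adjusted p = 3.43e-06; 0.14 by totals, adjusted p = 0.308). At the Ankrd34a start it was 11.7, 11.8 and 11 and then 12.6, 11 and 12.4, and at the Jun start 2.74, 2.67 and 2.3 and then 2.69, 2.51 and 3.19. The groups overlapped at all 3. The 5 genes that fell with a site within 1000 bp of a listed start were Ankrd34a, Dusp16, Jun, Kcnj9 and Mef2a. Their sites had a median change of −0.01 by totals and 0.51 by TMM, both the values at Mef2a, which is itself a targeted gene. At Ankrd34a, Dusp16, Jun and Kcnj9 the changes were 0.04, −0.68, 0.03 and −0.12 by totals. By TMM they were 0.55, −0.18, 0.53 and 0.39. The 22 pairs of falling genes with a site elsewhere had medians of −0.64 by totals and −0.13 by TMM. Conversely, RNA of Plxna4 changed by −0.07 (limma, adjusted p = 0.879) and that of Scn2a by −0.02 (adjusted p = 0.982) while their sites fell.

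**Figure D5:**
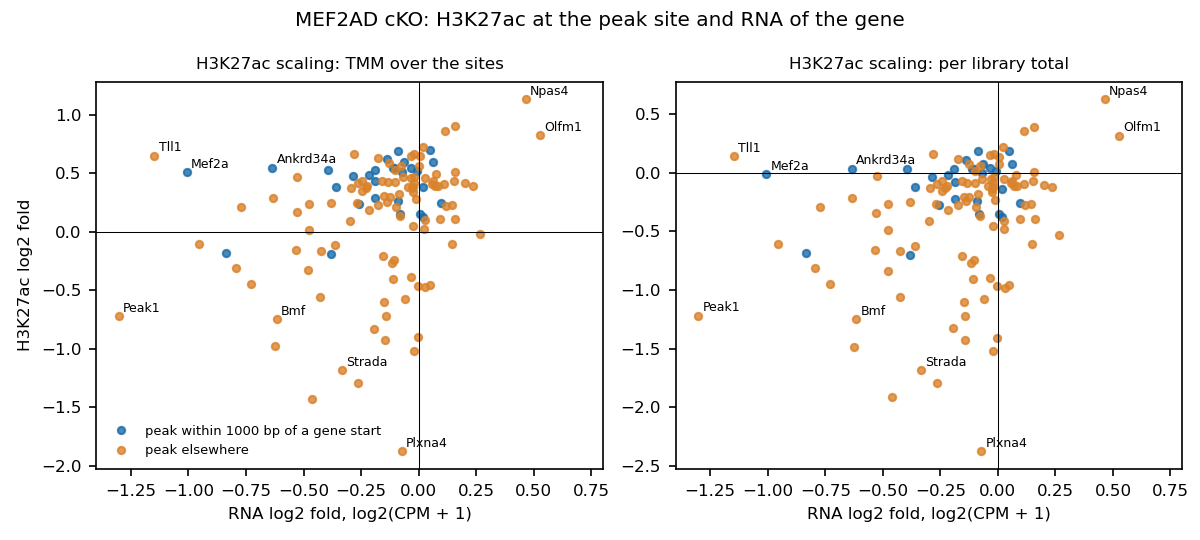
H3K27ac log2 change of the site (vertical axis) against RNA log2 change of its gene (horizontal axis) in MEF2AD cKO for 128 pairs, scaled by TMM on the left and by library totals on the right. Colours mark sites within 1000 bp of a listed gene start and sites elsewhere. Peak1 lies at −1.30 in RNA and −0.72 in H3K27ac by TMM, Tll1 at −1.15 and 0.65, and Plxna4 at −0.07 and −1.88.

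Known MEF2 partners and targets were at some of the peaks. Of 28 listed MEF2 coregulators, all measured, Hdac5, Hdac7 and Cabin1 have a MEF2A peak; Hdac7 fell in MEF2AD cKO (46.1, 42.1, 39.8 and 42.8 CPM in Control, 37.0, 29.5, 29.1 and 31.0 in cKO; limma, adjusted p = 0.00484). Hdac5 changed by −0.22 (adjusted p = 0.336) and Cabin1 by 0.20 (adjusted p = 0.0527). In the whole list 4 fell and 1 rose in MEF2AD cKO, while 6 fell and 3 rose in MEF2D cKO, and MEF2A cKO had 1 fall and 0 rises. Over all genes 1.26% fell and 1.16% rose in MEF2AD cKO. For MEF2D cKO these shares were 2.31% and 2.6%, for MEF2A cKO 0.129% and 0.149%. Of 22 measured textbook targets, Nr4a1, Jun, Klf6, Nr4a3 and Sgpp2, a sphingosine phosphate phosphatase, are at peaks; Jun alone of these was called in any knockout, and in the whole list 3 fell and 0 rose in MEF2AD cKO (1.26% and 1.16% of all genes), while 3 fell and 1 rose in MEF2D cKO (2.31% and 2.6%), and MEF2A cKO had 0 of either.

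Of 32 measured activity-regulated genes, Jun, Nr4a1, Nr4a2, Nr4a3, Npas4 and Ier2 are at peaks, and in the whole list 2 fell in MEF2AD cKO, where 1.26% of all genes did, 1 in MEF2D cKO, where 2.31% did, and 0 in MEF2A cKO, with no rise. Their levels spread widely between libraries of a group: Nr4a1 had 161, 33.0, 35.7 and 26.1 CPM in MEF2A Control and 80.4, 28.2, 23.7 and 103 in MEF2AD Control. Npas4, whose site rose in H3K27ac, had 11.6, 7.47, 6.70 and 18.5 CPM in MEF2AD Control and 18.1, 10.2, 13.3 and 18.2 in cKO. Control and cKO overlapped, and the change was 0.47 ± 0.39 (limma, adjusted p = 0.865). Of the cell type markers listed, Snap25, listed for mature granule neurons, and Lgi2 of interneurons are at MEF2A peaks, and no listed marker of Purkinje cells, glia, endothelium or choroid plexus is.

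A deposited sheet on the rotarod, a motor learning task, marks genes for MEF2A peaks. Of 113 genes in the authors' deposited table, 22 carry the mark, and 16 of them lie within 5000 bp of a peak in the list used here. In the fit used here 1 of the 22 fell in MEF2D cKO, where 2.31% of all genes did (Tob1, −0.24), and 1 in MEF2AD cKO, where 1.26% did (Klf13, a Krüppel-like factor, −0.41; limma, adjusted p = 0.0072), 0 rose in either and 0 were called in MEF2A cKO. The RNA sample titles name the rotarod while the deposited RNA table names a baseline, so whether these mice had been trained is not settled.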

How the data were processed

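MEF2A and MEF2D peaks, H3K27ac ChIP-seq and RNA-seq of mouse cerebellum were taken from the deposited tables, with each sample's group read from its title. Per the submitters' processing notes, Bowtie2 2.3.4.2, MACS2, STAR 2.6 and mm10 were used, with no role stated. The peak lists give positions only, per the file headers. H3K27ac values are read counts per site as deposited by the authors, without normalization, with each library's total; RPM here divides by that total. RNA values are log2 CPM that the authors deposited per library, with a pseudocount of 0.5 reads; every value (100%) gave a whole number of reads within 0.05. Dropping 91 repeats left 15469 of 15560 entries. From the authors' deposited rotarod sheet only the MEF2A peak marks were used, and 102 columns of per-library values were not used.

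Counts were tested with edgeR 4.0.16 (TMM over sites, or library totals, low-count filter) and RNA with limma 3.58.1 (R 4.3.3) on log2(CPM + 1), without a filter, because the deposited unit is not counts; all 6 groups of an assay shared 1 fit. DESeq2 1.42.0 and edgeR on recovered reads were alternatives. Giving library totals beside TMM throughout was chosen after seeing the data. Errors of log2 changes are SE. Replicates are separate samples per the labels, but nothing says which mice they came from, so p-values measure the spread between these samples. Every MEF2A cKO RNA library was closest to the Control of its own replicate number (correlations of deviations 0.40, 0.50, 0.24 and 0.19). In the MEF2D line this held for replicates 2, 3 and 4 (0.31, 0.20 and 0.23), and in the MEF2AD line for replicates 2 and 3 (0.26 and 0.13). In H3K27ac it held for all MEF2A replicates, with lower correlations (0.17, 0.11 and 0.09). Genes were placed with GRCm38.p6: an Entrez identifier placed 13660 and a symbol 1181, leaving 628 unplaced. Both tests were tried on simulated data with 200 features changed in MEF2AD cKO, up or down at random. Of log2 changes of 0.5, edgeR recovered 41.5% by TMM and 40% by totals, and limma 59%. Of changes of 1 they recovered 93.5%, 93.5% and 95.5%. Totals there were sums over the simulated sites, so the trial does not bear on the choice of scale.

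Named items follow a rule: per knockout the 6 largest falls and 3 largest rises of called, non-overlapping sites, the 8 and 6 of called genes with a mean of at least 1 CPM, the 4 largest differences each way, the 4 highest sites, the 6 highest and the called sites without a MEF2D peak, and listed genes at peaks. Other called genes, sites of falling genes, and RNA of Plxna4 and Scn2a were named after their values were seen. The members and lists were chosen with earlier results of these data known. Overlaps, motifs and plots were made in Python 3.11.15 (pandas 2.3.3, matplotlib 3.10.9). One called gene is not reported here by name.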

Additional observations from a re-analysis of the deposited data

Results flagged for a closer look

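Several members had effects that differed between knockouts by a direct test. For H3K27ac by TMM (edgeR), the MEF2AD effect differed from the MEF2A effect by −1.89 at Plxna4, −1.87 at Gpx4-ps2, −1.23 at chr3:20661988-20662194 and −1.13 at Scn2a, and by 1.36 at chr12:85436014-85436608, 1.31 at Npas4, 1.13 at chr4:64632306-64632502 and 1.02 at Olfm1. It differed from the MEF2D effect by −2.3 at Manba, −1.49 at chr12:21472428-21472791, −1.32 at Plxna4, −1.08 at Dot1l and 0.62 at Inpp4a. For RNA (limma), the difference from the MEF2A effect was −1.14 for Tll1, −1.03 for Bbc3, −1.01 for Dusp16 and −0.88 for Peak1. From the MEF2D effect it was −1.15 for Mef2a (targeted in MEF2AD cKO and not in MEF2D cKO), −0.97 for Tll1, −0.97 for Bmf and −0.95 for Dusp16. Against both single effects added together it was −1.13 for Dusp16, −1.10 for Bmf and −0.97 for Tll1.

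Single libraries stood far from the others of their group in 8 of 162 groups of 4 RNA libraries (27 genes), where chance gives about 1 in 20. These were MEF2D Control 1 for Igsf21 (153 CPM), MEF2D Control 3 for Dot1l (311 CPM), MEF2A Control 1 for Npas4 (30.2), Nr4a1 (161) and Nr4a3 (129), MEF2A cKO 1 for Nr4a1 (133 CPM) and Nr4a3 (139), and MEF2AD cKO 1 for Nr4a2 (39.2).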

How the results depend on the processing

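The scale decided the direction of most H3K27ac counts at MEF2A peaks. With library totals in place of TMM, the counts higher and lower were 1 and 35 in MEF2D cKO, 7 and 80 in MEF2AD cKO, 6 and 44 for MEF2AD minus MEF2A, 0 higher for MEF2AD minus MEF2D, and 1 lower for MEF2AD minus the sum; the median member change became −0.12, −0.14 and −0.26. DESeq2 gave 3 lower in MEF2D cKO, 11 lower for MEF2AD minus MEF2A, and 0 higher and 5 lower for MEF2AD minus MEF2D. With only the groups compared, 1 site was higher and 1 lower in MEF2A cKO and 0 higher for MEF2AD minus MEF2D; without a filter 2 were lower than the sum. The replicate block gave 2 higher for MEF2AD minus MEF2D and 3 higher and 5 lower than the sum (5 lower by totals). For RNA the block gave 5 lower in MEF2A cKO, 7 higher and 24 lower in MEF2D cKO, 2 higher in MEF2AD cKO, 3 higher and 14 lower against MEF2A, 12 lower against MEF2D and 8 lower than the sum. Only in the MEF2A line did every RNA replicate number pair. With only the groups compared, RNA counts were 1 lower in MEF2A cKO, 6 higher and 19 lower in MEF2D cKO and 5 lower against MEF2A. edgeR on recovered reads gave 1 lower in MEF2A cKO, 2 higher in MEF2AD cKO and 1 higher against MEF2A; DESeq2 gave 3 higher in MEF2AD cKO, 3 higher against MEF2A, 1 higher against MEF2D, and 1 higher and 6 lower than the sum. Taking the nearest start gave 1 lower in MEF2A cKO. The cause of these shifts was not tested.

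Leaving out 1 library gave these ranges of H3K27ac counts by TMM: 30 to 38 higher and 4 to 6 lower in MEF2D cKO, 71 to 82 and 28 to 34 in MEF2AD cKO, 49 to 60 and 13 to 21 against MEF2A, 0 to 2 and 3 to 10 against MEF2D, and 0 to 1 and 0 to 7 against the sum (7 without MEF2AD cKO 2). By totals they were 0 to 1 lower in MEF2A cKO, 0 to 3 higher and 26 to 37 lower in MEF2D cKO, 2 to 8 and 59 to 79 in MEF2AD cKO, 3 to 9 and 37 to 50 against MEF2A, 9 to 21 lower against MEF2D and 0 to 6 lower than the sum. For RNA they were 1 to 3 lower in MEF2A cKO, 1 to 3 higher and 6 to 10 lower in MEF2D cKO, 1 to 2 and 21 to 27 in MEF2AD cKO, 0 to 2 and 6 to 12 against MEF2A, 4 to 8 lower against MEF2D, and 0 to 1 higher and 3 to 5 lower than the sum. Of 1038 values of named items under alternatives, 946 kept their direction and side of the threshold, 92 lost the threshold and 0 reversed. Windows round each peak's centre, their GC content and the windows of 200 and 500 bp were not run, because no genome was used. With 39.5 reads at the median member, MEF2AD cKO 3 limits the precision of single sites.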
